A study of Homo sapiens with 6 samples.

Results

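The 31 genes described here encode enzymes of sterol and fatty acid synthesis and the factors that control them. They were taken by gene symbol from a list given for this work, and each symbol matched 1 row of the 57905 genes in the deposited table. All 31 had enough reads to be among the 14178 genes tested. RT4 cells, an established line from a non-muscle invasive bladder tumour with the genotype label WT, were transfected for 48 h with 100 pmol of a scramble siRNA (Scramble, 3 libraries) or of the *LEADR* siRNA (LEADR-KD, 3 libraries). *LEADR* is a spliced long non-coding transcript of *MIR205HG*, and poly(A) RNA was sequenced. Every LEADR-KD library received the same single siRNA sequence. The study's methods call the libraries of a group biological replicates, and neither they nor the labels say how the cultures were separated, so p values measure the spread between these libraries.

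Totals ranged from 15706033 to 18960822 counts per library. Mitochondrial transcripts took 3.06% to 11.9% of the counts in Scramble and 4.79% to 10.8% in LEADR-KD, and the library numbered 1 was the highest in both groups. *MIR205HG*, the targeted gene, had 30.1, 17.3 and 20.7 CPM (counts divided by the library total and scaled by TMM) in Scramble and 7.08, 11.6 and 5.72 CPM in LEADR-KD. Its log2 ratio of LEADR-KD to Scramble (log2FC) was -1.47 ± 0.26 (standard error, n = 3 per group), with an adjusted p (edgeR's quasi-likelihood test, Benjamini-Hochberg) of 0.00180. Later values written with ± after a log2FC are also standard errors. Among 15 urothelial markers, *KRT7*, *KRT8*, *KRT18*, *KRT19*, *EPCAM* and *GATA3* were abundant and the basal and umbrella cell keratins *KRT5* and *KRT20* averaged under 1 CPM in both groups. The uroplakin genes of umbrella cells were expressed. *UPK1A*, *UPK1B*, *UPK2* and *UPK3A* averaged 5.96, 84.4, 43.6 and 17.9 CPM in Scramble and 6.82, 143, 50.5 and 21.7 CPM in LEADR-KD. The urothelial list summed to 7086 to 7843 CPM in Scramble and 8500 to 9110 CPM in LEADR-KD, and 3 of its genes rose (*CDH1* by a factor of 2.16, *UPK1B* by 1.70 and *KRT18* by 1.31) and 1 fell (*FOXA1*, to 0.812). Of 4 hepatocyte markers 4 were at 0 in all libraries. Of 5 leukocyte markers 5 were under 1 CPM, as were 4 of 6 fibroblast and 3 of 5 adipocyte markers. Fibroblast markers summed to 26.4 to 32.1 CPM in Scramble and 18.4 to 25.7 CPM in LEADR-KD, nearly all *COL3A1*. Endothelial markers summed to 6.98 to 10.2 and 2.55 to 4.46 CPM, mostly *VWF*. The adipocyte list summed to 383 to 433 CPM in Scramble and 476 to 665 CPM in LEADR-KD, nearly all of it *FABP4*, a fatty acid binding protein gene also known in urothelium, while *ADIPOQ* and *CIDEC* were at 0. The part of these markers in the results was not tested.

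Cholesterol is built from acetyl-CoA through mevalonate, farnesyl diphosphate, squalene and lanosterol, and fatty acids are built from the same acetyl-CoA by way of malonyl-CoA. Transcription of both sets of enzymes is driven by the sterol regulatory element binding proteins (SREBPs), which SCAP escorts from the endoplasmic reticulum to the Golgi when sterols are low and which the INSIG proteins hold back when sterols are high. SREBP-2 is best known for the sterol genes and SREBP-1c for the fatty acid genes.

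In *LEADR*-depleted RT4 cells 10 of the 31 genes fell, 1 rose and 20 did not pass (edgeR, adjusted p under 0.05 over all 14178 genes). Among all genes tested 24.4% passed (12.1% fell and 12.2% rose), against 32.3% and 3.23% of these 31. The 31 genes were chosen with earlier results of these data known, so these shares are a description only. Of the 10 that fell, 6 act from the synthesis of squalene to cholesterol, 3 in fatty acid synthesis and 1, *MVD*, earlier in the mevalonate pathway. The largest fall was that of *ACSS2*, which makes acetyl-CoA from acetate, to 0.307 of its Scramble level, followed by *MSMO1*, a methylsterol oxidase gene, to 0.506 and *MVD*, the mevalonate diphosphate decarboxylase gene, to 0.609. *GGPS1*, which makes the geranylgeranyl group used to anchor small GTPases in membranes, rose by a factor of 1.49. None of the SREBP genes, *SCAP*, *INSIG1*, *INSIG2* or *STARD4* passed the test. The median log2FC was -0.16 over the 31 genes and -0.01 over all genes. The CPM of the groups did not overlap in 13 genes that were lower and 4 that were higher in LEADR-KD, while over all genes 19.9% were lower without overlap and 19.9% were higher.

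**Figure D1:**
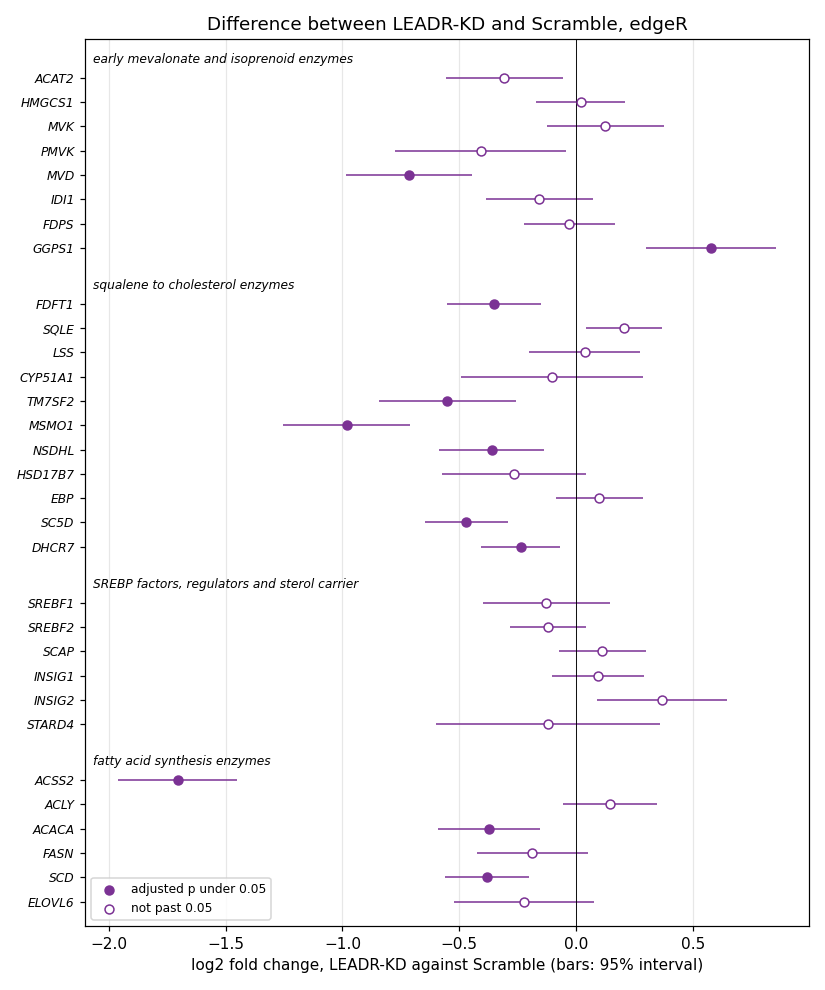
Log2FC of the 31 genes, LEADR-KD against Scramble, with 95% intervals from edgeR, ordered by pathway step (vertical axis). Filled points passed an adjusted p under 0.05: 10 lie left of 0 and 1, *GGPS1*, lies right, and none is in the group of SREBP factors and regulators.

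Short matches to the siRNA strand given in the labels lie in the 3′ untranslated regions (UTRs) of several of the genes that fell most. The siRNA sequences are shown for that reason. Matches of 7 bases or more to that strand were held by 19.4% of the genes described here. The share was 17.8% among all tested genes with a 3′ UTR. An siRNA strand can lower transcripts through a match to its bases 2 to 8, the seed, as a microRNA does. The complement of the strand given in the labels was taken over all 21 bases, with no overhang at either end. With overhangs its start and seed could differ, and such seeds were not searched. Both strands are written 5′ to 3′ with the seed in capitals.
Labelled strand: aACUGGGUgcuuuauauagga
Complementary strand: uCCUAUAUaaagcacccaguu
The labelled strand has the same letters as 13 of the 17 annotated *MIR205HG* transcripts, so it is the sense strand, and the complementary strand is the one that pairs with *LEADR*. A match to the labelled strand reads ACCCAGT, or ACCCAGTA when an A opposite base 1 is counted, which is scored as in microRNA target sites and does not pair with the A at base 1 of this strand; CCCAGTA has that A but stops at base 7, and CCCAGT is the match to bases 2 to 7 alone. The 3′ UTR of 1 annotated isoform per gene was searched (the Ensembl canonical one, GENCODE v44 lifted to GRCh37, the build also known as hg19).

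Of the 31 genes, 6 hold a match of 7 bases or more to the labelled strand (19.4%, against 17.8% of 12122 tested genes with a 3′ UTR), and 4 of the 6 fell and 0 rose, where 24.98% of all genes with such a match fell and 10.5% rose. A further 8 hold only CCCAGT, of which 4 fell and 0 rose, against 15.8% and 12.5% of all genes of that class. The remaining 17 hold no match, and 2 of these, *FDFT1* and *TM7SF2*, fell and 1, *GGPS1*, rose, against 8.71% and 15.5%. *ACSS2* and *MSMO1*, whose falls were the largest, both hold CCCAGTA. As the longest match it was held by 6.45% of the 31 genes and 5.94% of all tested genes with a 3′ UTR. Of the next largest falls, that of *MVD* came with CCCAGT only and that of *TM7SF2* with no match. The sites of the 6 genes are written as mRNA-sense DNA with the match in capitals.
*ACSS2*: tcttaggaagcCCCAGTActtatattggg
*MSMO1*: atggcttttctCCCAGTAaaaccataggc
*SC5D*: atttatagattACCCAGTtgaagatactt
*DHCR7*: gcaggaggatgACCCAGTcacctttacta
*LSS*: tctagcctctgACCCAGTctggtctggct
*ELOVL6*: aggttgatttaACCCAGTAagtttatgatc
In GRCh37 they lie at chr20:33515367-33515395 on the plus strand (*ACSS2*), chr4:166263391-166263419 plus (*MSMO1*), chr11:121181611-121181639 plus (*SC5D*), chr11:71146139-71146167 minus (*DHCR7*), chr21:47609862-47609890 minus (*LSS*) and chr4:110972318-110972347 minus (*ELOVL6*). The site of *SC5D* is beyond the end of the gene in the deposited table, at 121179403, so it belongs only to the longer UTR of the later annotation.

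A long match did not go with a large fall in every gene. *ELOVL6* holds the 8-base match in a UTR of 5492 bases, and its log2FC was -0.22 (edgeR adjusted p = 0.273), while *LSS* holds a 7-base match and was at 0.04 (edgeR adjusted p = 0.851). *MVD*, *NSDHL*, *ACACA* and *SCD* fell with CCCAGT only, which 20.3% of all genes hold as their longest match.

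Across all 12122 genes the median log2FC was -0.23 for the 297 genes with the 8-base match, -0.09 and -0.08 for the 7-base matches with base 8 and with the A, -0.03 for CCCAGT alone and 0.04 for the 7501 with no match. In the same order 36.0%, 24.0%, 21.9%, 15.8% and 8.71% of the genes fell and 7.41%, 11.3%, 10.6%, 12.5% and 15.5% rose. The complementary strand, whose match reads ATATAGG, gave shares of 18.2%, 12.3%, 15.5%, 13.97% and 12.6% lower in that order. Of the 1627 genes with 7 bases or more 14.997% fell and 17.1% rose, and the 3 such genes of the 31 (*INSIG2*, *ELOVL6* and *CYP51A1*) did not pass. The part of these matches in the changes below was not tested.

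**Figure D2:**
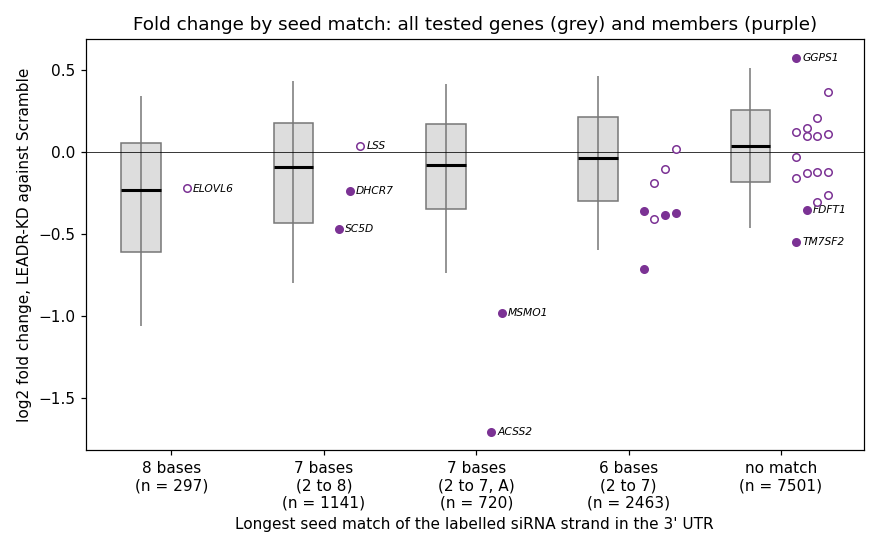
Log2FC, LEADR-KD against Scramble (vertical axis), by the longest seed match of the labelled siRNA strand in the 3′ UTR (horizontal axis, n of all tested genes). Grey boxes give the quartiles of all genes with lines from the 10th to the 90th percentile and a black bar at the median; purple points are the 31 genes, filled at an adjusted p under 0.05. The black bars run from -0.23 at 8 bases to 0.04 with no match.

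The level of these genes in RT4 spanned more than 2 orders of magnitude in FPKM, the deposited unit that divides each count by gene length. *FDFT1*, squalene synthase, was the most abundant at 143 ± 10.3 FPKM (SD, n = 3) in Scramble, followed by *FASN*, fatty acid synthase, at 108 ± 11.5, *SCD*, stearoyl-CoA desaturase, at 75.4 ± 0.810, and *ACLY*, ATP citrate lyase, at 66.5 ± 5.70. The order of *FDFT1* and *FASN* was the same in each of the 3 Scramble libraries. *MSMO1*, *DHCR7*, *SREBF2* and *SQLE* came next, at 32.4 to 40.0 FPKM. At the other end were *GGPS1* at 4.29 ± 0.483, *HSD17B7* at 4.004 ± 0.372, *CYP51A1* at 2.69 ± 0.572 and *STARD4*, a sterol carrier gene, at 0.828 ± 0.140 FPKM. *ACSS2*, at 5.86 ± 0.179 FPKM in Scramble, moved to 1.81 ± 0.0970 FPKM in LEADR-KD, below *CYP51A1*.

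**Figure D3:**
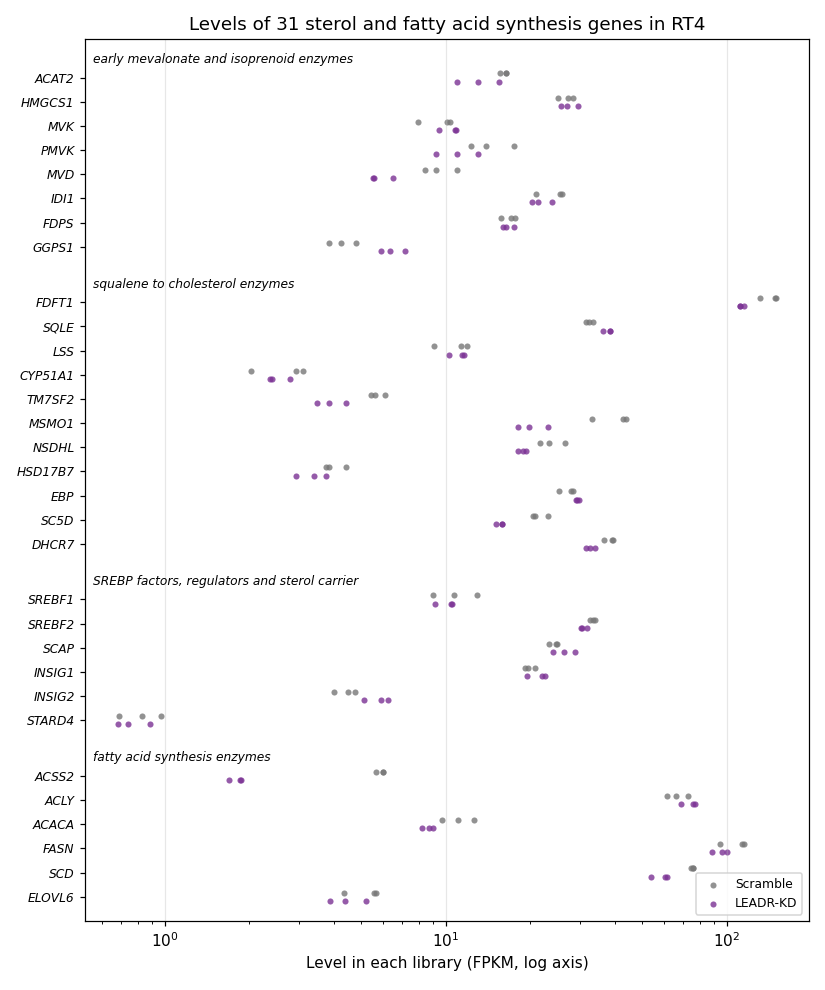
FPKM of the 31 genes in each library (horizontal log axis), with Scramble in grey and LEADR-KD in purple, ordered by pathway step. *FDFT1* and *FASN* are the most abundant and *STARD4* the least, and the points of *ACSS2* stand furthest apart.

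Of the 8 genes that lead from acetyl-CoA to the isoprenoid diphosphates, 1 fell, 1 rose and 6 did not pass, with a median log2FC of -0.09. Each share was 12.5%, near the 12.1% lower and 12.2% higher among all genes. *MVD* had 40.3, 43.98 and 52.1 CPM in Scramble and 26.1, 26.2 and 30.8 CPM in LEADR-KD. Every LEADR-KD value was below every Scramble value, with a log2FC of -0.72 ± 0.12 (edgeR adjusted p = 0.00149). *GGPS1* moved the opposite way, from 17.96, 22.4 and 19.9 CPM to 33.3, 29.4 and 27.2 CPM, again without overlap (log2FC 0.58 ± 0.13, edgeR adjusted p = 0.00692). The gene span of *GGPS1* overlaps *ARID4B* on the opposite strand, which had 255% of the counts of *GGPS1* and a log2FC of -0.24 (edgeR adjusted p = 0.112).

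*ACAT2*, the thiolase gene of the first condensation, had 72.4, 72.1 and 69.1 CPM in Scramble and 67.5, 48.2 and 57.0 CPM in LEADR-KD. The groups did not overlap, yet the gene did not pass (log2FC -0.31, edgeR adjusted p = 0.0740). Its spread was in LEADR-KD. *ACAT2* passed without LEADR-KD 1 (edgeR adjusted p = 0.0114) but with no other single library left out (adjusted p up to 0.269). It passed under 5 of the 17 alternatives, and not by DESeq2 or limma. *PMVK*, phosphomevalonate kinase, was at -0.41 (edgeR adjusted p = 0.0984) with overlapping groups.

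*HMGCS1*, the synthase of HMG-CoA and a well known SREBP-2 target, gave 119, 129 and 135 CPM against 120, 128 and 140 CPM. The groups covered the same range, and the 95% interval of its log2FC ran from -0.17 to 0.21. The intervals of *FDPS*, farnesyl diphosphate synthase, at -0.22 to 0.16, *MVK*, mevalonate kinase, at -0.13 to 0.37, and *IDI1*, the isopentenyl diphosphate isomerase gene, at -0.39 to 0.07 also covered 0.

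From the synthesis of squalene to cholesterol 6 of 11 genes fell, 0 rose and 5 did not pass, with a median log2FC of -0.27. *MSMO1*, which with *NSDHL* and *HSD17B7* removes methyl groups from the sterol ring, had 97.1, 128 and 125 CPM in Scramble and 52.4, 57.8 and 67.1 CPM in LEADR-KD. The highest LEADR-KD library lay well below the lowest Scramble library, and the log2FC was -0.98 ± 0.12 (edgeR adjusted p = 0.000202). *NSDHL*, the sterol dehydrogenase gene of the same complex, went from 43.8, 53.3 and 47.0 CPM to 38.4, 36.2 and 37.5 CPM (log2FC -0.36, edgeR adjusted p = 0.0235). It did not pass without Scramble 2 (0.106), LEADR-KD 2 (0.0910) or LEADR-KD 3 (0.0627). *HSD17B7*, the ketoreductase gene, gave 15.96, 18.4 and 15.6 CPM against 12.03, 14.1 and 15.5 CPM. The groups were apart by a narrow margin (log2FC -0.27, edgeR adjusted p = 0.204). Its pseudogene *HSD17B7P2* took 8.43% as many counts, so reads could have been split between them.

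*SC5D*, the desaturase gene near the end of the pathway, had 115, 129 and 117 CPM in Scramble and 88.1, 84.5 and 88.7 CPM in LEADR-KD. The LEADR-KD libraries lay close together and below all Scramble libraries (log2FC -0.47 ± 0.08, edgeR adjusted p = 0.00156). *DHCR7*, the reductase gene of the last step in one branch, went from 153, 165 and 164 CPM to 135, 132 and 142 CPM. Its fall was small (log2FC -0.24, edgeR adjusted p = 0.0420) and did not pass when any 1 library other than Scramble 1 was left out (adjusted p = 0.0650 without LEADR-KD 3, 0.0847 without LEADR-KD 1, 0.124 without Scramble 3, 0.132 without Scramble 2 and 0.147 without LEADR-KD 2). *DHCR7* passed under 8 of the 17 alternatives, and not by edgeR with library totals only (0.0751) or without a filter on low counts (0.116).

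*TM7SF2*, a sterol reductase gene, fell from 20.9, 19.2 and 18.6 CPM to 11.8, 13.1 and 15.1 CPM (log2FC -0.55, edgeR adjusted p = 0.0112). It overlaps *VPS51* on the same strand, which had 510% of its counts and itself fell (log2FC -0.39, edgeR adjusted p = 0.0408), so the reads of the pair may not be fully separate. Without both libraries numbered 1 the adjusted p of *TM7SF2* was 0.0597.

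*FDFT1*, which commits farnesyl diphosphate to sterols, had 689, 783 and 783 CPM in Scramble and 581, 585 and 601 CPM in LEADR-KD. All LEADR-KD values were lower (log2FC -0.35 ± 0.09, edgeR adjusted p = 0.0165). The call was lost without Scramble 2 (0.0665), Scramble 3 (0.0540) or LEADR-KD 2 (0.0598). *SQLE*, squalene epoxidase and the next enzyme, went from 137, 145 and 141 CPM to 165, 157 and 165 CPM. Its groups did not overlap in the opposite direction, and the gene did not pass (log2FC 0.21, edgeR adjusted p = 0.0648). *SQLE* passed as higher under 3 of the 17 alternatives. These were filtered limma on log2(FPKM + 1) (0.0463) or log2(FPKM + 0.1) (0.0499) and edgeR with a replicate block (0.0282). The 95% intervals of *LSS*, lanosterol synthase, at -0.20 to 0.27, *EBP*, a sterol isomerase gene, at -0.09 to 0.28, and *CYP51A1*, lanosterol demethylase, at -0.49 to 0.29 covered 0.

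Among the 6 enzymes of fatty acid synthesis 3 fell, 0 rose and 3 did not pass, with a median log2FC of -0.30. *ACSS2* had 32.5, 32.4 and 30.8 CPM in Scramble and 10.1, 10.1 and 9.17 CPM in LEADR-KD. The spread within each group was small beside the gap between them, and the log2FC was -1.71 ± 0.12 (edgeR adjusted p = 3.65e-06). Over the 17 alternatives it ranged from -1.75 to -1.29, the latter on the log2(FPKM + 1) scale, which understates changes of low genes. *GGT7*, which overlaps *ACSS2* on the opposite strand, had 43.8% as many counts and was at 0.20 (edgeR adjusted p = 0.428).

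*SCD*, which introduces the double bond of oleate, had 409, 403 and 412 CPM in Scramble and 327, 289 and 323 CPM in LEADR-KD. The groups were well apart for a gene of this abundance (log2FC -0.38 ± 0.08, edgeR adjusted p = 0.00564). *ACACA*, acetyl-CoA carboxylase, went from 176, 135 and 154 CPM to 120, 125 and 113 CPM (log2FC -0.37, edgeR adjusted p = 0.0179). Scramble 1 was its highest library, and the call was lost without Scramble 1 (0.0641) or without LEADR-KD 3 (0.0674).

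*FASN* gave 1026, 854 and 1046 CPM against 866, 906 and 797 CPM. The groups overlapped, and the 95% interval of its log2FC, -0.43 to 0.05, reaches the size seen for *SCD* and *ACACA*. *ACLY*, which supplies acetyl-CoA from citrate, was at 0.14 with an interval of -0.06 to 0.35. *ELOVL6*, the elongase gene after *FASN*, had an interval of -0.52 to 0.08. Of the enzymes that feed acetyl-CoA into the pathway, the one that uses acetate fell and the one that uses citrate did not pass; the difference between them was not tested.

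**Figure D4:**
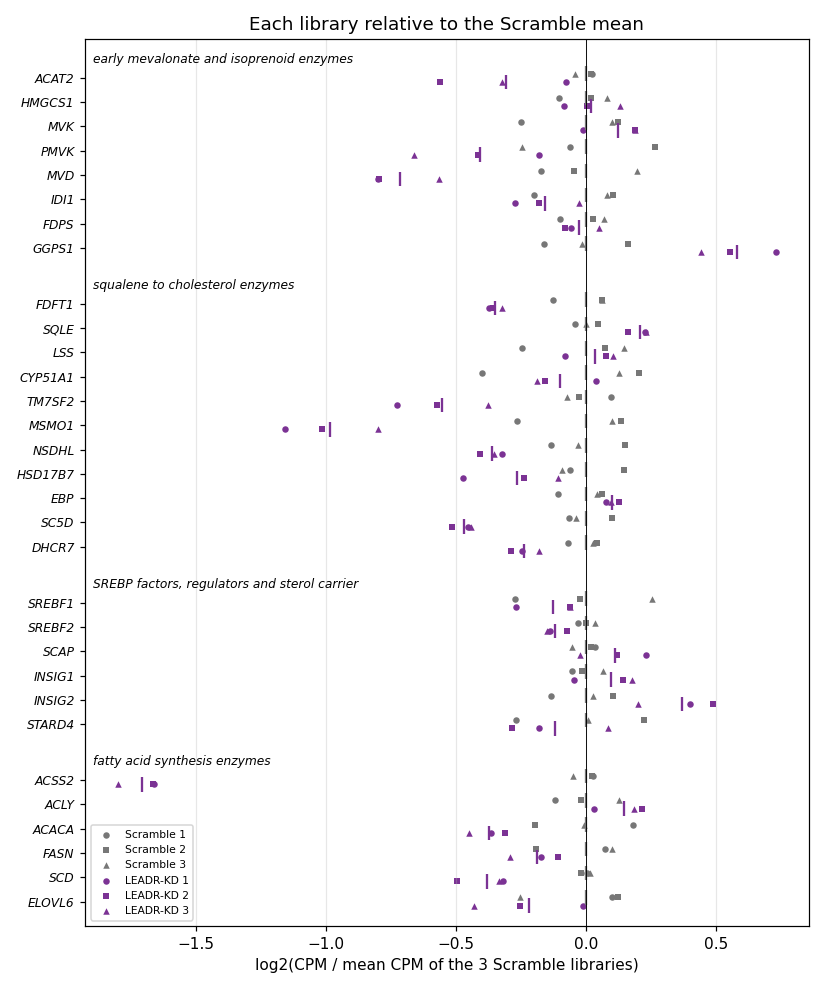
Log2 ratio of the CPM of each library to the mean CPM of the 3 Scramble libraries (horizontal axis), for the 31 genes in pathway order, with grey for Scramble, purple for LEADR-KD, a marker shape for each replicate number and a vertical bar for the mean of a group. *ACSS2*, *MSMO1* and *MVD* show the widest gaps to the left and *GGPS1* to the right.

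Of the 6 genes of SREBP factors, their regulators and the sterol carrier, 0 passed by edgeR, 1 (*INSIG2*) had an unadjusted p under 0.05 and the same 1 passed by DESeq2. The median log2FC was -0.01. *SREBF2*, which encodes SREBP-2, gave 248, 253 and 260 CPM against 230, 241 and 229 CPM. The LEADR-KD libraries were all lower, by too little to pass (log2FC -0.12, 95% interval -0.28 to 0.04, edgeR adjusted p = 0.275). *SREBF1*, which encodes SREBP-1, gave 73.0, 86.8 and 105 CPM against 73.2, 84.6 and 84.6 CPM (interval -0.40 to 0.14). Counts are per gene, so the SREBP-1a and SREBP-1c isoforms are not told apart, and transcript levels do not report the cleavage that activates either factor.

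*INSIG1*, both a brake on SREBP processing and an SREBP target, gave 70.3, 72.3 and 76.5 CPM against 70.7, 80.6 and 82.5 CPM, with overlapping groups. *INSIG2* gave 16.02, 18.9 and 17.9 CPM against 23.2, 24.7 and 20.2 CPM. Its groups did not overlap, and it missed the threshold (log2FC 0.37, edgeR adjusted p = 0.0561), but passed under 4 of the 17 alternatives, by DESeq2 (0.0479), without mitochondrial genes (0.0480), with a replicate block (0.0199) and without LEADR-KD 3 (0.0469). The interval of *SCAP* was -0.07 to 0.30. *STARD4*, with as few as 67 counts in a library, had the widest interval of the 31, at -0.60 to 0.36, so a change of moderate size was not detectable at this depth.

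The mean log2 CPM of the genes in each role was also compared by library, as a description. For the enzymes from squalene synthesis to cholesterol it was 6.02, 6.23 and 6.17 in Scramble and 5.83, 5.86 and 5.93 in LEADR-KD, without overlap. For fatty acid synthesis it was 7.48, 7.39 and 7.42 against 7.02, 6.998 and 6.91, and the groups were still apart when *ACSS2* was left out (7.97, 7.86 and 7.92 against 7.75, 7.73 and 7.65). The early enzymes, at 5.55, 5.76 and 5.71 against 5.58, 5.52 and 5.58, and the regulators, at 5.60, 5.77 and 5.78 against 5.72, 5.78 and 5.76, overlapped. Scramble 1, the library with the largest mitochondrial share, was the lowest of the Scramble libraries in 21 of the 31 genes. Genes overlapping *ACAT2*, *MVK* and *SREBF1* on the opposite strand were also expressed, among them *TCP1* at 478% of the counts of *ACAT2* (log2FC 0.24), *MMAB* at 63.0% of those of *MVK* (log2FC -0.34) and *RAI1* at 166% of those of *SREBF1* (log2FC -0.25), and their part in the values of these genes was not tested. The part of the mitochondrial share in these values was not tested. Without both libraries numbered 1, 10 of the 31 genes fell and 1 rose, with *ACAT2* (0.0147) and *PMVK* (0.0445) gained and *TM7SF2* (0.0597) and *ACACA* (0.0583) lost.

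The promoters of these genes were searched for an SREBP site (TCACNCCAC) and for the CCAAT box (CCAAT, the site of NF-Y, a usual partner of SREBPs), on both strands, in the RefSeq table for GRCh38.p14, which holds 250 bases before to 50 bases after each start and matched 27 of the 31 genes (not *ACAT2*, *FDFT1*, *SQLE* and *FASN*). The CCAAT box was present in 18 of the 27 (66.7%), against 35.7% of all 27305 promoters and 37.1% of the 9586 promoters of tested genes. *MSMO1* has 4 copies and *NSDHL* and *MVK* have 5, while *PMVK*, *IDI1*, *GGPS1*, *CYP51A1*, *SREBF1*, *SCAP*, *INSIG2*, *ACACA* and *ELOVL6* have none. The SREBP site in this strict form was found in 1 of the 27, against 1.15% of all promoters. That one is in *SREBF2* itself, and the bases around it are shown with the motif in capitals.
*SREBF2* promoter: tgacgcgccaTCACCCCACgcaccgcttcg
It lies at chr22:41832962-41832991 on the plus strand of GRCh38.p14, with the motif starting 133 bases before the transcription start. These letters are a match and not a measured binding site, and other forms of the SREBP site were not searched.

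Genes around the pathway were counted in 6 lists. Among all genes tested 12.1% fell and 12.2% rose. Of 17 tested genes of sterol transport, storage and efflux, 5 fell (29.4%) and 3 rose (17.6%), with a median log2FC of -0.08. *LIPA*, the lysosomal acid lipase that frees cholesterol from its esters, went from 54.0 to 21.6 CPM (log2FC -1.32, edgeR adjusted p = 1.01e-05), and *ABCA1*, the sterol exporter, was at -1.23. *NCEH1*, a neutral cholesterol ester hydrolase gene, and *NPC2*, a lysosomal sterol carrier gene, rose by 0.67 and 0.49. Of 18 genes that use isoprenoids 2 fell (11.1%) and 3 rose (16.7%), with a median of 0.09. *ZMPSTE24*, the protease that matures farnesylated lamin A, was at -0.63 and *CHML*, an escort of RAB proteins, at -0.41. *PDSS2*, of the coenzyme Q side chain, was at 0.69. *CHML* did not pass without LEADR-KD 2 (0.0538) or LEADR-KD 3 (0.0543).

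Of 10 tested genes of SREBP processing and degradation 2 fell (20%) and 1 rose (10%), against 12.1% and 12.2% of all genes. The median was 0.03. *FBXW7* (-0.70), a ubiquitin ligase gene that acts on nuclear SREBPs, and *RNF145* (-0.57) fell. *PAQR3* (0.96), which tethers SCAP at the Golgi, rose. In fatty acid elongation, desaturation and activation 1 of 21 fell (4.76%) and 2 rose (9.52%), with a median of -0.10. *ME1* (-0.51), the malic enzyme gene that supplies NADPH, fell. *HSD17B12* (0.76), of the elongation cycle, and *ACSL3* (0.25, edgeR adjusted p = 0.0498) rose. *ME1* did not pass without LEADR-KD 2 (0.0563), and *ACSL3* was lost with any 1 library left out.

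In glycerolipid synthesis 5 of 18 genes rose (27.8%) and 1 fell (5.56%), against 12.2% and 12.1% of all genes, with a median of 0.08. *AGPAT5*, an acyltransferase gene, and *PLIN2*, a lipid droplet coat protein gene, rose by 0.56 and 0.55, and *AGPAT1* was at -1.03. In fatty acid oxidation 3 of 26 fell (11.5%) and 1 rose (3.85%), with a median of -0.03. *CPT1A*, which admits fatty acids to mitochondria, was at -0.50. *SLC25A20*, the carnitine carrier gene, was at 0.54 with an edgeR adjusted p of 0.0462 and passed among the leave-one-out fits only without LEADR-KD 1.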

How the data were processed

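Poly(A) RNA of 6 RT4 libraries, 3 per siRNA, was grouped by the submitters' titles. The authors deposited raw counts per gene, FPKM values (each count divided by gene length and by 1 constant per library) and a table of their own comparison with log2 fold changes and p values, which was not used. The submitters' processing notes name HISAT2 2.0.5, featureCounts 1.5.0-p3 and DESeq2 1.20.0 on hg19, and the paper's methods name Salmon. The library protocol keeps strand. Which strand option the counting used was not found in the labels, headers or methods, and reads of overlapping genes may not be separate.

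Genes were kept by filterByExpr (minimum count 10), scaled by TMM and compared by the quasi-likelihood test of edgeR 4.0.16 (R 4.3.3), without covariates and with Benjamini-Hochberg adjustment over 14178 genes. Steps were tested on simulated counts. CPM and FPKM are given as mean ± SD or per library. A standard error is the log2 fold change divided by the square root of F, and 95% intervals use the test's degrees of freedom. Alternatives were DESeq2 1.42.0, limma 3.58.1 on log2(FPKM + 1) or log2(FPKM + 0.1), other scalings and filters (a mean of 50 counts), the replicate number as a block, and leaving out libraries. Of the 14178 genes, 13850 matched GENCODE v44 by Ensembl ID and the rest were matched by symbol where possible. The members and lists were chosen with earlier results of these data known. Named genes are the 31 members, *MIR205HG* and, in each of the 6 lists, up to 2 genes per direction with the largest change among those past 0.05, of which 2 are not reported here. Genes overlapping a member by position, markers and 2 enzymes of a shared step are named besides.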

Additional observations from a re-analysis of the deposited data

How the results depend on the processing

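Of the 11 genes called among the 31, 6 (*ACSS2*, *MSMO1*, *MVD*, *SC5D*, *SCD* and *GGPS1*) passed under all 17 alternatives, and none of the 11 changed sign. The number lower was 9 to 12 over the alternatives that kept all 6 libraries, except 6 when limma was run on log2(FPKM + 1) with no gene filter, and 7 to 10 with 1 library left out. The number higher was 2 by DESeq2, without mitochondrial genes and by limma on either FPKM scale, and 1 to 2 with 1 library left out. With the replicate number as a block 12 were lower and 3 higher. Same-numbered libraries had correlations of their deviations of 0.23, 0.00058 and 0.27, and differently numbered libraries ranged from -0.30 to 0.075. The values 0.23 and 0.27 thus lay above those of all differently numbered libraries. The main fit did not take the numbers as pairs, and whether they mark an effect shared by both groups was not tested. The median log2 fold change of the 31 genes ranged from -0.25 without Scramble 1 to -0.12 without Scramble 3. Over all genes 1085 were higher with library totals only, and 915 higher and 854 lower by limma with no gene filter, where *MIR205HG* was at -1.16 (adjusted p = 0.0507); with 1 library left out 1188 to 1457 were higher and 1142 to 1472 lower. With the block 2489 were higher and 2365 lower. Counts of at least 67 per library limited the 31 genes little, except *STARD4*.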
